A study of Mus musculus with 6 samples.

Results

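The genes described here are the G1 cyclins, the kinases bound by the D cyclins and the retinoblastoma (RB) proteins, 10 genes chosen by symbol: CCND1, CCND2, CCND3, CCNE1, CCNE2, CDK4, CDK6, RB1, RBL1 and RBL2. All 10 had a row among the 46937 symbols of the count table, and all 10 were among the 21201 genes with enough counts to be tested. Symbols are in capitals, as in the table, although the genes are those of the mouse. The libraries hold total RNA from biopsies of lung tumours of mice bred to model squamous carcinoma. PSCN tumours (3 libraries) carry Pik3caH1047R, which keeps PI3K active, Sox2OE, an overexpression of SOX2, Cdkn2a/bKO, a deletion of CDKN2A and CDKN2B, and in addition express NSD3T1242A, a mutant of the histone methyltransferase NSD3. PSC tumours (3 libraries) carry Pik3caH1047R, Sox2OE and Cdkn2a/bKO without the NSD3 mutant and serve as the control. The single comparison asks how transcripts differ when the mutant is present. Age, sex and the promoter or Cre that drives each allele are not stated in the labels. Nor is it stated whether the biopsies are of different mice. Sex transcripts, given below, differ among the PSC libraries, so these are not all of the same mouse. P-values reflect the spread among these samples alone, which may be technical in part. In PSCN it may lie wholly between biopsies of the same mouse rather than between mice.

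D cyclins bind CDK4 or CDK6 in early G1 and E cyclins bind CDK2 later, and these complexes phosphorylate the RB proteins. Unphosphorylated RB1, RBL1 (p107) and RBL2 (p130) hold E2F transcription factors in check. Once phosphorylated they release them, and E2F target genes for DNA replication are transcribed. RBL2 is the member best known from quiescent and differentiated cells, while CCNE1, CCNE2 and RBL1 are themselves E2F target genes. CDKN2A and CDKN2B, which the labels give as deleted in both groups, encode INK4 inhibitors that bind CDK4 and CDK6. CDKN2B nonetheless stood at 86.1 CPM in PSCN library 1 (CPM are counts divided by TMM-adjusted library size and scaled up), a value that goes against the labelled deletion in that biopsy as a whole.

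Total counts ran from 69563622 to 72807077 per library, and each member had at least 297 counts in each library, so counting error was small beside the spread between libraries. NSD3 stood at 821, 918 and 1932 CPM in PSCN libraries 1, 2 and 3, against 79.7, 96.7 and 101.7 CPM in PSC libraries 1, 2 and 3, higher in the group labelled with the mutant. The count does not separate the mutant transcript from the tumour's own NSD3. PSC library 3 stood apart from its group, with a mean correlation of log2 CPM over genes of 0.941 with PSCN libraries and 0.908 with the rest of the PSC group. By XIST and DDX3Y, the 3 PSCN libraries and PSC library 1 were male and PSC libraries 2 and 3 female. PSC library 1 is thus of another mouse than PSC libraries 2 and 3. The squamous label was checked on 9 squamous markers, which summed to between 12100 and 34300 CPM in PSCN, against 182, 1920 and 8570 CPM in PSC libraries 1, 2 and 3. PSC library 1 thus had little squamous keratin RNA, with KRT14 at 44.7 CPM. In a bulk biopsy, fewer cells of a type and less RNA per cell cannot be told apart, and this holds for each result that follows.

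No member passed an adjusted p of 0.05 in edgeR's quasi-likelihood test over all genes: 0 were called higher, where 0.00472% of genes tested were, and 0 were called lower, where 0% were. At an unadjusted p under 0.05, 2 were higher (9.48% of genes tested) and 1 was lower (12.2%). RBL2 was the member with the smallest p, with its 3 PSCN libraries below its 3 PSC libraries. CCNE1, CCNE2 and CDK4 had their 3 PSCN libraries above their 3 PSC libraries. Thus 3 members lay wholly above and 1 wholly below, while over all genes tested 15.2% lay wholly above and 13.4% wholly below. The log2 fold changes of PSCN over PSC were positive for 7 members and negative for 3, with a median of 0.48. Over all genes tested 49.1% were positive, with a median of -0.01. DESeq2 called 1 member higher (CDK4, where 5.42% of genes were called) and 1 lower (RBL2, where 8.89% were). Limma-voom with sample quality weights called 4 higher (CCNE1, CCNE2, CDK4 and RBL1, background 8.43%) and 1 lower (RBL2, background 5.84%). Its weight was lowest for PSC library 3 (0.36) and highest for PSC library 2 (2.92). Its calls thus also lean away from PSC library 3. Without PSC library 3, edgeR called CCNE1 higher (background 3.39%) and RBL2 lower (background 5.4%). With all 6 libraries, edgeR with adjusted deviances called 0 members (background 0.0142% higher and 0% lower).

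**Figure D1:**
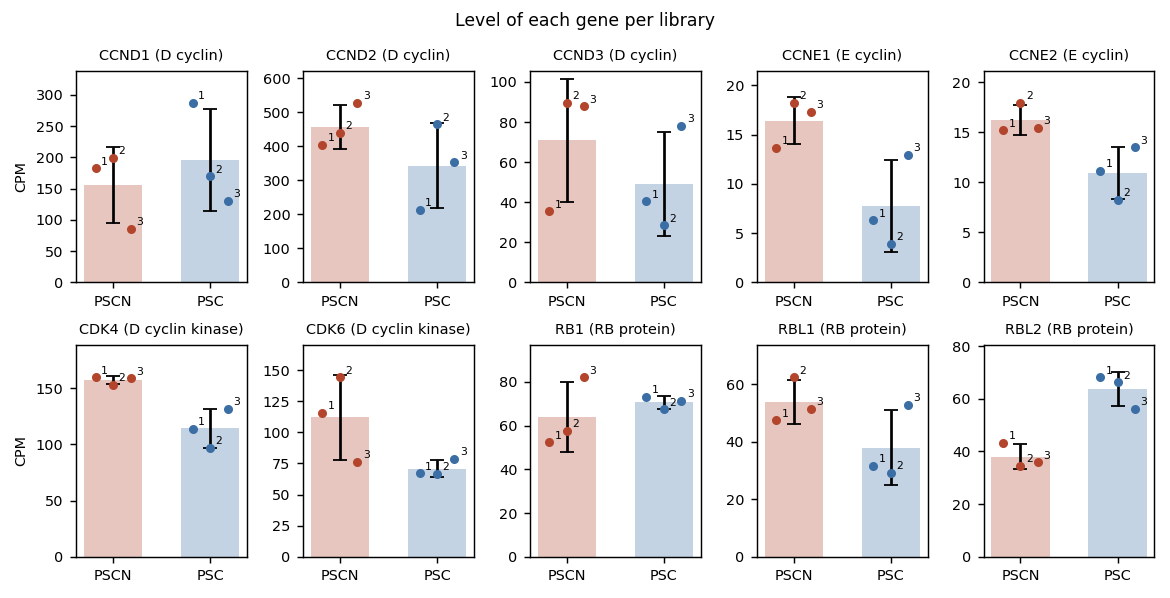
Level of each gene in CPM (y axes, from 0) in the PSCN and PSC libraries (x axes); points are libraries with their numbers, bars are group means and error bars are SD over 3 libraries. CDK4, CCNE1 and CCNE2 have their 3 PSCN points above the 3 PSC points and RBL2 has them below, while the other genes overlap.

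CCND1, the D cyclin most often amplified in squamous tumours, stood at 183, 199.5 and 85.9 CPM in PSCN libraries 1, 2 and 3, against 287, 169.6 and 130.7 CPM in PSC libraries 1, 2 and 3. The groups overlapped, with PSC library 1 the highest and PSCN library 3 the lowest. Its log2 fold change was -0.33 (SE 0.42, 95% interval -1.36 to 0.71, edgeR adjusted p = 0.663), and the sign turned without PSC library 1, to 0.055 (edgeR adjusted p = 0.964). It was -0.06 without PSCN library 3, -0.54 without PSC library 3 and -0.60 without PSCN library 2. CCND1 (ENSMUSG00000070348.5) lies on chromosome 7 from 144929931 to 144939925 in GRCm38. LTO1, on the opposite strand with 1100 shared exon bases, has no row under that symbol, so its level is not known here.

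CCND2, the D cyclin known for its induction by MYC and by growth factors, stood at 404, 439 and 527 CPM in PSCN, against 213, 464 and 353 CPM in PSC. PSC library 1 was the lowest of the 6 and PSC library 2 lay between PSCN libraries 2 and 3. PSCN over PSC, the log2 fold change was 0.41 (SE 0.31, 95% interval -0.35 to 1.17, edgeR adjusted p = 0.456). It was 0.16 without PSC library 1, 0.28 without PSCN library 3 and 0.69 without PSC library 2. CCND1 and CCND2 thus ran against each other in PSC library 1, which had the most CCND1 and the least CCND2.

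CCND3, the D cyclin prominent in blood cells, stood at 35.5, 89.5 and 87.8 CPM in PSCN, against 40.5, 28.5 and 78.1 CPM in PSC. The 3 higher libraries were PSCN 2, PSCN 3 and PSC 3, so the groups overlapped widely. Its log2 fold change was 0.53 (SE 0.50, 95% interval -0.69 to 1.75, edgeR adjusted p = 0.548). Without PSC library 3 it was 1.05 (edgeR adjusted p = 0.187), and without any other single library between 0.26 (PSC library 2) and 0.86 (PSCN library 1). BYSL, on the opposite strand with 361 shared exon bases, stood at 36.1 ± 4.21 CPM in PSCN and 24.4 ± 5.42 CPM in PSC (SD, n = 3 each). T cell markers summed to between 19.4 and 63.9 CPM in PSCN and between 39.5 and 119 CPM in PSC, and B cell markers to between 6.17 and 17.8 CPM in PSCN and between 47.8 and 184 CPM in PSC, with all 6 and all 5 of those markers negative. Neither list was at 0 in any library, and their part in the CCND3 counts was not tested.

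With PSCN tumours set against PSC tumours within male libraries, where PSC library 1 is the only PSC library and has no spread of its own, the log2 fold change was -0.86 for CCND1, 1.12 for CCND2 and 0.83 for CCND3. Divided by exon length, CCND1 made up 45.3, 42.7 and 21.6% of the summed D cyclin RPKM (CPM per kilobase of exon) in PSCN, against 69.1, 40.6 and 37.4% in PSC. CCND2 made up 50, 47 and 66.5% in PSCN, against 25.7, 55.7 and 50.6% in PSC. CCND2 was the larger share in all 3 PSCN libraries and in PSC libraries 2 and 3, and CCND1 in PSC library 1. CCND3 stayed between 4.71 and 11.9% in PSCN and between 3.67 and 12% in PSC. The size of its share depends on the length used. With the longest transcript as length, its mean was 18.4 RPKM in PSCN and 12.7 RPKM in PSC, in place of 8.08 and 5.59 RPKM. An exact permutation test over the 6 libraries, which cannot go below p = 0.1 with 3 against 3, gave p = 0.6 for CCND1, p = 0.6 for CCND2 and p = 0.8 for CCND3 (two-sided, 0.8 each after adjustment over the 8 ratios tested). The 3 D cyclins together came to 85.8, 99.2 and 84.3 RPKM in PSCN, against 88.3, 88.6 and 74.1 RPKM in PSC, so their sum varied less than its parts.

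**Figure D2:**
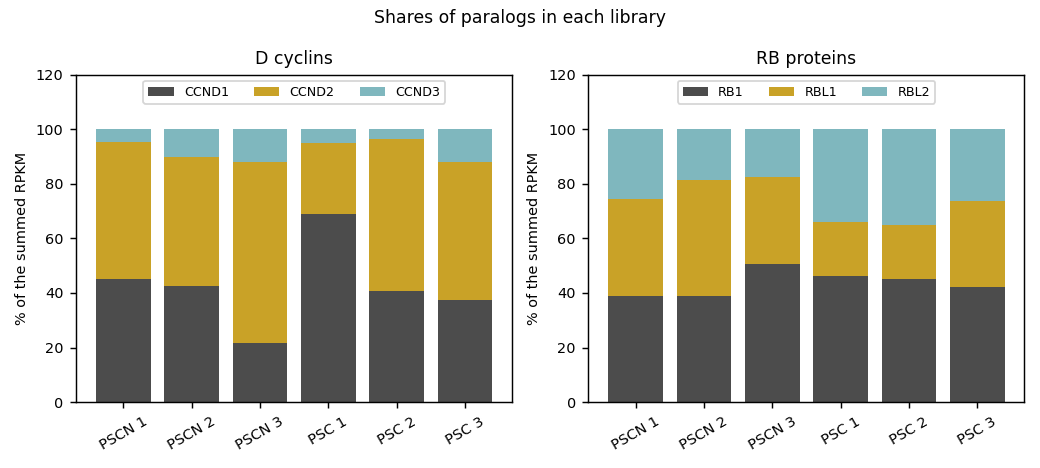
Share of each paralog in the summed RPKM of the D cyclins (left) and of the RB proteins (right), as % on the y axis, in each library on the x axis. CCND1 takes 69.1% in PSC library 1 and 21.6% in PSCN library 3; RBL2 takes 17.6 to 25.6% in PSCN and 26.5 to 35.3% in PSC.

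CDK4 is the kinase partner of the D cyclins in most epithelial cells and a known target of MYC, which binds E-boxes. It stood at 159.9, 153.4 and 158.8 CPM in PSCN libraries 1, 2 and 3, against 113.9, 97.3 and 131.8 CPM in PSC libraries 1, 2 and 3. The PSCN libraries lay within a narrow band above all PSC libraries, with a coefficient of variation of 2.21% in PSCN and 15.1% in PSC. In edgeR the log2 fold change was 0.46 (SE 0.16, 95% interval 0.08 to 0.84, edgeR adjusted p = 0.196). With DESeq2 it was 0.46 (adjusted p = 0.0445), and without each library in turn it ran from 0.36 to 0.59. In the authors' deposited table CDK4 had a log2 fold change of 0.457 and an adjusted p of 0.0846. TSPAN31, which overlaps CDK4 on the opposite strand by 641 exon bases, stood at 87.6 ± 9.29 CPM in PSCN and 71.9 ± 4.43 CPM in PSC (SD, n = 3 each). The library kit keeps strand, but whether the counting used it is not given in the sources, so reads of such overlaps cannot be told apart.

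The 250 bases before the RefSeq start of CDK4 (GRCm38.p6, plus strand, chr10:127063285-127063534) are shown because they hold 4 copies of the E-box CACGTG, in capitals. The E-box reads alike on both strands, and its copies begin 172, 118, 98 and 11 bases before the start.

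CDK4: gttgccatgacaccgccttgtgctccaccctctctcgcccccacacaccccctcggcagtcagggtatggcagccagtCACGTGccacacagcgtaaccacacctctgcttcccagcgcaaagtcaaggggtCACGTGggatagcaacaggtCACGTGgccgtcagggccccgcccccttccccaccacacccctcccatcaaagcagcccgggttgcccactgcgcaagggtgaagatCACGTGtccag

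Among 32851 mouse windows of this length 6.02% hold at least 1 such E-box and 0.0213%, 7 windows, hold 4 or more. The window of CDK6 holds 1, and those of CCND3, CCNE1, RBL1 and RBL2 hold none. MYC itself stood at 38, 62.5 and 31.5 CPM in PSCN, against 17.5, 19.3 and 33.4 CPM in PSC, a log2 fold change of 0.91 (SE 0.37, edgeR adjusted p = 0.227). A match in letters is a description and says nothing of binding in these tumours.

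CDK6, the other D cyclin kinase, stood at 115.4, 144.2 and 76.5 CPM in PSCN, against 66.9, 66.6 and 78.6 CPM in PSC. PSCN libraries 1 and 2 lay above the PSC libraries and PSCN library 3 lay among them, below PSC library 3. The log2 fold change was 0.66 (SE 0.25, 95% interval 0.05 to 1.27, edgeR adjusted p = 0.211), and leaving out each library in turn it ran from 0.39, without PSCN library 2, to 0.86. Per exon length, CDK4 exceeded CDK6 by 5.96, 4.58 and 8.95 times in PSCN, against 7.33, 6.29 and 7.22 times in PSC (exact permutation p = 0.8). The 2 kinases together came to 57.5, 57.5 and 54.4 RPKM in PSCN, against 39.8, 34.7 and 46.2 RPKM in PSC, with no overlap.

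CCNE1, which activates CDK2 at the entry into S phase, stood at 13.7, 18.2 and 17.3 CPM in PSCN libraries 1, 2 and 3, against 6.3, 3.92 and 12.9 CPM in PSC libraries 1, 2 and 3. PSC library 3 lay close below PSCN library 1, and the other PSC libraries well below. CCNE1 had the largest positive difference of the 10 genes, 2.12-fold, a log2 fold change of 1.09 (SE 0.46, 95% interval -0.03 to 2.21, edgeR adjusted p = 0.239). Without PSC library 3 it was 1.70 (edgeR adjusted p = 0.0452), and without PSC library 2 it fell to 0.77 (edgeR adjusted p = 0.475).

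CCNE2, its paralog with the same partner, stood at 15.2, 17.9 and 15.5 CPM in PSCN, against 11.1, 8.24 and 13.5 CPM in PSC. The groups did not overlap and PSC library 3 was again the PSC library nearest to PSCN. CCNE2 had a log2 fold change of 0.56 (SE 0.24, 95% interval -0.02 to 1.15, edgeR adjusted p = 0.239). It was 0.76 without PSC library 3 (edgeR adjusted p = 0.0924) and 0.40 without PSC library 2 (edgeR adjusted p = 0.507). INTS8, which overlaps CCNE2 by 609 exon bases on the opposite strand, differed by 0.15 (SE 0.17) on the log2 scale. Per exon length, CCNE1 made up 54.2, 57.2 and 59.5% of the E cyclin RPKM in PSCN, against 42.7, 38.5 and 55.8% in PSC (exact permutation p = 0.2). CCNE1 was therefore the larger of the pair in PSCN libraries and in PSC library 3, and CCNE2 in PSC libraries 1 and 2.

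RBL2 stood at 43.4, 34.6 and 35.9 CPM in PSCN libraries 1, 2 and 3, against 68.2, 66.3 and 56.3 CPM in PSC libraries 1, 2 and 3. All 3 PSCN libraries lay below all 3 PSC libraries, and the spread within either group was small, with coefficients of variation of 12.5% in PSCN and 10.1% in PSC. The log2 fold change was -0.74 (SE 0.16, 95% interval -1.12 to -0.36), a fold of 0.597. Its p of 0.003 stood at rank 362 of the 21201 genes, and its edgeR adjusted p was 0.175. Leaving out each library in turn gave -0.84 to -0.69, with edgeR adjusted p from 0.0471 to 0.438, the lowest being without PSC library 3. DESeq2 gave -0.75 (adjusted p = 0.000645) and limma-voom with quality weights -0.82 (adjusted p = 0.0352). In the authors' deposited table, also from DESeq2 on these libraries and so no separate result, RBL2 was at -0.753 with an adjusted p of 0.00227. RBL2 (ENSMUSG00000031666.15) lies on chromosome 8 from 91070057 to 91123844. AKTIP, which overlaps it by 693 exon bases on the opposite strand, stood at 46.2 ± 10.7 CPM in PSCN and 43.2 ± 5.33 CPM in PSC (SD, n = 3 each). GM45464, which shares 892 exon bases with RBL2 on the opposite strand, has no row under that symbol.

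RBL1 stood at 47.5, 62.5 and 51.4 CPM in PSCN, against 31.6, 29.3 and 52.9 CPM in PSC. PSC library 3 lay above PSCN libraries 1 and 3, so the groups overlapped. RBL1 had a log2 fold change of 0.51 (SE 0.27, 95% interval -0.15 to 1.16, edgeR adjusted p = 0.312). Without PSC library 3 it was 0.83 (edgeR adjusted p = 0.0533), and limma-voom with quality weights gave 0.76 (adjusted p = 0.0485). In edgeR it fell to 0.34 without PSCN library 2 and to 0.35 without PSC library 2.

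RB1, the tumour suppressor of the family, stood at 52.4, 57.6 and 82.1 CPM in PSCN, against 73.2, 67.5 and 71.4 CPM in PSC. PSCN library 3 was the highest of all and PSCN libraries 1 and 2 the lowest, while the PSC libraries lay close together. The log2 fold change was -0.14 (SE 0.20, 95% interval -0.63 to 0.34, edgeR adjusted p = 0.684). It was -0.007 without PSCN library 1 and -0.38 without PSCN library 3. RB1 spans LPAR6, a receptor gene on the opposite strand with 408 shared exon bases, which stood at 45.6 ± 6.95 CPM in PSCN and 34.1 ± 9.75 CPM in PSC (SD, n = 3 each). RCBTB2, its neighbour with 488 shared exon bases, was at 33.5 ± 4.24 CPM in PSCN and 42.1 ± 4.13 CPM in PSC (SD, n = 3 each).

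The upstream windows of the 2 RB paralogs that differ in direction are shown beside each other. In RBL1 (minus strand, chr2:157204535-157204784) capitals mark the E2F motif, searched as TTCCCGC or TTGGCGC or TTCGCGC or TTGCCGC on either strand, whose only match begins 17 bases before the start. In RBL2 (plus strand, chr8:91069807-91070056) capitals mark the cell cycle homology region (CHR) letters TTTGAA, found on the opposite strand 201 bases before the start. Both are from RefSeq in GRCm38.p6, and the matches overlap no other motif searched.

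RBL1: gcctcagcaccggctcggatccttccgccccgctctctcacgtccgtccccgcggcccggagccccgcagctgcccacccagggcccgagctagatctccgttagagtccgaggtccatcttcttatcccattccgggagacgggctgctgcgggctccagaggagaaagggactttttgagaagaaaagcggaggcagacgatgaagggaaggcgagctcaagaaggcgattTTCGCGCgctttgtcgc

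RBL2: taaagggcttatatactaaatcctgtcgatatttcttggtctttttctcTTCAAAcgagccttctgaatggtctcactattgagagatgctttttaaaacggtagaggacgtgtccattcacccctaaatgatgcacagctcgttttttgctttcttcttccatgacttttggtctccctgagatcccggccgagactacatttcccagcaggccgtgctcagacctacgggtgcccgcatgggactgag

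Of the 32851 windows, 7.89% hold an E2F match, 16% a CHR match and 6.75% a match to the AP-1 letters TGANTCA on either strand. Windows were at hand for 6 of the 10 genes, 7 windows in all. RBL1 had the only E2F match, RBL2 the only CHR match, and none had an AP-1 match.

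Per exon length, RBL2 made up 25.6, 18.6 and 17.6% of the summed RB protein RPKM in PSCN, against 34.1, 35.3 and 26.5% in PSC. RBL1 made up 35.5, 42.4 and 31.8% in PSCN, against 19.9, 19.6 and 31.4% in PSC. Neither share overlapped between groups. PSCN library 3 and PSC library 3 differed little for RBL1, however, and PSCN library 1 and PSC library 3 differed little for RBL2. The exact permutation p was 0.1 for each share, the smallest that 3 against 3 allows, and 0.4 after adjustment over the 8 ratios. In PSC libraries 1 and 2 RBL2 exceeded RBL1, and in the 3 PSCN libraries and PSC library 3 RBL1 exceeded RBL2. For PSC library 3 this order depends on the length used. Not divided by length, RBL1 was at 52.9 CPM there and RBL2 at 56.3 CPM. The RB1 share was 38.9, 39 and 50.6% in PSCN and 46, 45.1 and 42.2% in PSC. The family's summed RPKM was 22.4, 24.6 and 27 in PSCN and 26.5, 24.9 and 28.1 in PSC.

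**Figure D3:**
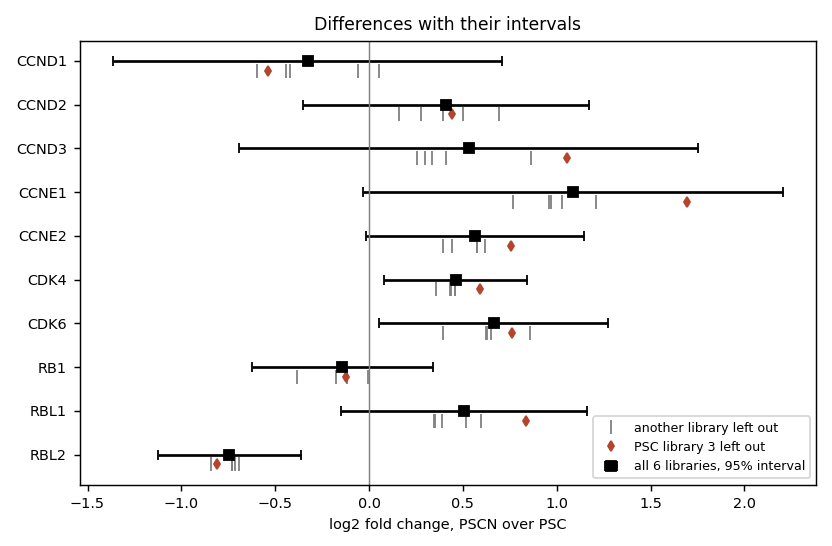
Log2 fold change of PSCN over PSC (x axis) for each gene (y axis); squares with bars are values from all 6 libraries with their 95% intervals, and marks below them are values without 1 library. The interval of RBL2 runs from -1.12 to -0.36 and its marks stay between -0.84 and -0.69, while the diamond for CCNE1 without PSC library 3 lies at 1.70.

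The order of levels per exon length placed CCND2 (48.5 ± 6.75 RPKM), CDK4 (48.4 ± 1.07 RPKM) and CCND1 (33.1 ± 13 RPKM) at the top in PSCN (SD, n = 3). In PSC the same 3 genes led, with CCND1 at 41.6 ± 17.3, CCND2 at 36.5 ± 13.4 and CDK4 at 35.2 ± 5.31 RPKM. In PSC these 3 overlapped each other and stood clear of RB1. RB1 followed at 10.6 ± 2.64 RPKM in PSCN and 11.8 ± 0.489 RPKM in PSC. In PSCN the ranges of each pair of neighbours from RB1 down overlapped, through RBL1, CCND3, CDK6, CCNE1, RBL2 and CCNE2. RBL2 was the ninth of the 10 genes in PSCN, at 5.02 ± 0.627 RPKM, and the fifth in PSC, at 8.41 ± 0.849 RPKM. CCNE1 was at 6.16 ± 0.899 RPKM in PSCN and was the lowest in PSC, at 2.9 ± 1.76 RPKM, where its range overlapped that of CCNE2. With the longest transcript as length, CDK4 led in both groups, CCND3 moved up to the fourth place in PSCN, and CCNE2 (3.64 RPKM) in place of CCNE1 (3.86 RPKM) was the lowest in PSC, so these places depend on the length used.

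**Figure D4:**
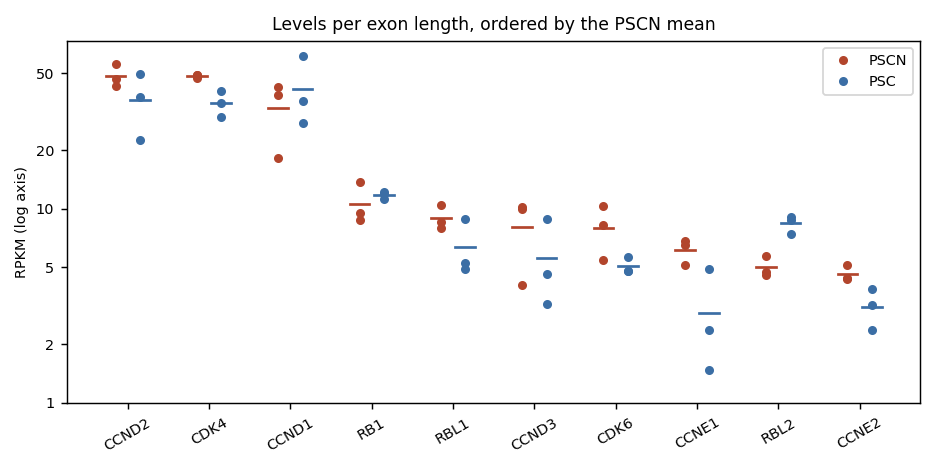
Levels per exon length in RPKM (log axis) for each gene on the x axis, ordered by the PSCN mean; points are libraries, PSCN left of PSC, and short lines are means. CCND2, CDK4 and CCND1 lie at 18.2 RPKM or above in each library, and the other genes at 13.7 RPKM or below.

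Several members varied together over the 6 libraries. Pearson correlations of log2 CPM, which are descriptions over 6 libraries of 2 groups and share the group difference and the position of PSC library 3, were 0.98 between CCNE1 and CCNE2, 0.96 between CCNE1 and CDK4 and 0.96 between CCNE1 and RBL1. RBL2 ran the other way, at -0.88 with CCNE1 and with CCNE2 and -0.90 with CDK4. CCND1, CCND2 and RB1 had no positive correlation above 0.46 with another member, and their strongest negative ones were -0.78 between RB1 and CDK6, -0.73 between CCND1 and CCND2 and -0.62 between CCND2 and RBL2. Among 92 other genes of this pathway, those most like CCNE1 were CCNA2 and CKS2 (r = 0.99 each), and those most like CCNE2 were CKS1B (r = 1) and GINS1 (r = 0.99). RBL1 was most like CKS2 (r = 0.99) and NFKB1 (r = 0.98). CDK6 was most like MYC (r = 0.92) and ETS2 (r = 0.91). RBL2 was most like E2F2 (r = 0.96) and CDKN2A (r = 0.92), which were also at lower means in PSCN. CCND1 was most like E2F6 (r = 0.97), CCND2 most like TP63 (r = 0.83) and CCND3 most like LIN9 (r = 0.95). For CDK4 the nearest were CCNE1 and CCNE2, and for RB1 the nearest, STAT5A, reached only 0.61.

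Genes of proliferating cells varied with the same libraries. Summed CPM of 21 E2F target replication genes was 947, 1140 and 905 in PSCN libraries 1, 2 and 3, against 691, 439 and 872 in PSC libraries 1, 2 and 3, and 7 mitotic genes summed to 550, 813 and 583 CPM in PSCN, against 327, 221 and 550 CPM in PSC. PSC library 2 was the lowest in both, and PSC library 3 reached the level of PSCN library 1 in the mitotic genes. Set against the replication genes, a ratio added after the data were seen, CCNE2 was 16, 15.7 and 17.1 CPM per 1000 CPM of that list in PSCN, against 16.1, 18.8 and 15.5 in PSC. On this ratio CDK4 was 160 ± 22.2 in PSCN and 179 ± 37.3 in PSC, RBL1 53.9 ± 3.36 in PSCN and 57.7 ± 10.8 in PSC, and CDK6 111 ± 22.9 in PSCN and 113 ± 33.8 in PSC (SD, n = 3 each). Their groups overlapped on this ratio, whereas CCNE2 and CDK4 did not overlap as CPM. Because CCNE1, CCNE2 and RBL1 are E2F target genes like those of the list, such a ratio can level them by construction. What the overlap comes from was not tested. CCNE1 was 14.5, 15.9 and 19.1 in PSCN, against 9.12, 8.92 and 14.9 in PSC, where PSC library 3 passed PSCN library 1. RBL2 was 45.8, 30.3 and 39.7 in PSCN, against 98.6, 151 and 64.6 in PSC. With RBL2 lower and the list higher in each PSCN library, the direction of that ratio was fixed by its parts and adds nothing to the CPM.

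Markers of other lung cell types also differed between the libraries. Ciliated cell markers summed to between 30.9 and 71.2 CPM in PSCN, against 973, 440 and 42.6 CPM in PSC libraries 1, 2 and 3, with 10 of 10 tested markers negative. Club and goblet markers summed to between 571 and 1960 CPM in PSCN and between 3770 and 27400 CPM in PSC, with 7 of 7 negative. Alveolar type 2 markers summed to between 2120 and 2810 CPM in PSCN and between 1470 and 12300 CPM in PSC, with PSC library 3 the lowest. Endothelial markers were at 393 to 667 CPM in PSCN and 281 to 1600 CPM in PSC. Fibroblast markers were at 41500 CPM in PSCN library 1 and between 1120 and 3980 CPM in the other 5 libraries. Macrophage markers were at 252 to 549 CPM in PSCN and 162 to 387 CPM in PSC, neutrophil markers at 210 to 1090 CPM in PSCN and 36.9 to 453 CPM in PSC, and general epithelial markers at 2080 to 3240 CPM in PSCN and 2270 to 3150 CPM in PSC. The part of these cells in the members' values was not tested.

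Around the members, 83 genes of the pathway were followed in 7 lists, and 0 of them passed edgeR's adjusted p of 0.05 in either direction, beside 13 higher and 3 lower at an unadjusted p under 0.05 (9.48% and 12.2% of all genes tested). DESeq2 called 3 of the 83 higher and 2 lower, where it called 5.42% and 8.89% of all genes. Limma-voom with quality weights called 17 higher and 2 lower, where it called 8.43% and 5.84% of all genes. With PSC library 3 left out, 4 of the 83 were called higher by edgeR and 1 lower, where it called 3.39% and 5.4% of all genes. The E2F target replication genes were positive in 21 of 21, with a median log2 fold change of 0.59. For this and the lists that follow, the share of positive values over all genes tested was 49.1%. The thymidine kinase TK1 had 0.56 (SE 0.23), the maintenance methylation factor UHRF1 0.87 (SE 0.36), the chromatin assembly subunit CHAF1A 0.67 (SE 0.28) and the ribonucleotide reductase subunit RRM2 0.95 (SE 0.41). Genes of CDK2, the CDK-activating kinase and CDC25 were positive in 10 of 11 (median 0.57). In this list the phosphatase CDC25A, which activates CDK2, stood at 31.9, 36.9 and 31.8 CPM in PSCN, against 19.1, 19.7 and 28.7 CPM in PSC (log2 fold change 0.57, SE 0.21). CKS1B, a CDK-binding subunit, had 0.85 (SE 0.31), its paralog CKS2 0.89 (SE 0.37) and the inhibitory kinase WEE1 0.35 (SE 0.15). CDK2 itself was at 0.27 (SE 0.53).

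The E2F factors and their DP partners were positive in 7 of 10 (median 0.34, and 0.49 without PSC library 3). The repressor E2F7 stood at 15.5, 23.6 and 14.7 CPM in PSCN, against 7.84, 5.5 and 11.4 CPM in PSC, and its close relative E2F8 differed by 1.02 (SE 0.37) on the log2 scale. The activator E2F2 ran the other way, at 18.3, 14.2 and 13.4 CPM in PSCN, against 24.2, 28.2 and 20.5 CPM in PSC. The dimer partner TFDP1 had 0.65 (SE 0.25). In the list of DREAM and MuvB genes, the complex in which RBL2 and RBL1 repress cell cycle genes, 5 of 8 were positive (median 0.16). MYBL2, which joins MuvB when cells cycle, had 1.02 (SE 0.35), the MuvB subunit LIN52 -0.67 (SE 0.27), MYBL1 -0.72 (SE 0.35) and the histone binder RBBP4 0.24 (SE 0.14).

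The CDK inhibitors were positive in 3 of 7 (median -0.06). CDKN1A (p21) stood at 215, 365 and 329.6 CPM in PSCN, against 133.5, 139.1 and 140 CPM in PSC, a log2 fold change of 1.14 (SE 0.23, edgeR adjusted p = 0.171, DESeq2 adjusted p = 0.00154). CDKN1C (p57) stood at 4.94, 4.4 and 3.81 CPM in PSCN, against 62.1, 52.3 and 5.09 CPM in PSC, so that its difference came with PSC libraries 1 and 2. The deleted CDKN2A was at 2.86, 1.53 and 1.51 CPM in PSCN and 5.13, 4.74 and 2.38 CPM in PSC. CDKN2B was at 86.1 CPM in PSCN library 1, the library with the high fibroblast markers, and under 1 CPM in the other 5. Ubiquitin ligase genes that act on G1 regulators were positive in 8 of 10 (median 0.15, but 0.04 without PSCN library 2 and 0.26 without PSC library 3), with SKP2, which marks CDKN1B for degradation, at 0.72 (SE 0.29), KLHL18 at 0.67 (SE 0.27), FBXO31 at -0.93 (SE 0.42) and the scaffold CUL1 at 0.25 (SE 0.15). The inducers of D cyclins were positive in 11 of 16 (median 0.25), with FOS at 0.78 (SE 0.20, DESeq2 adjusted p = 0.0118), ETS1 at -0.80 (SE 0.33) and STAT5A at -0.36 (SE 0.15) beside MYC.

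**Figure D5:**
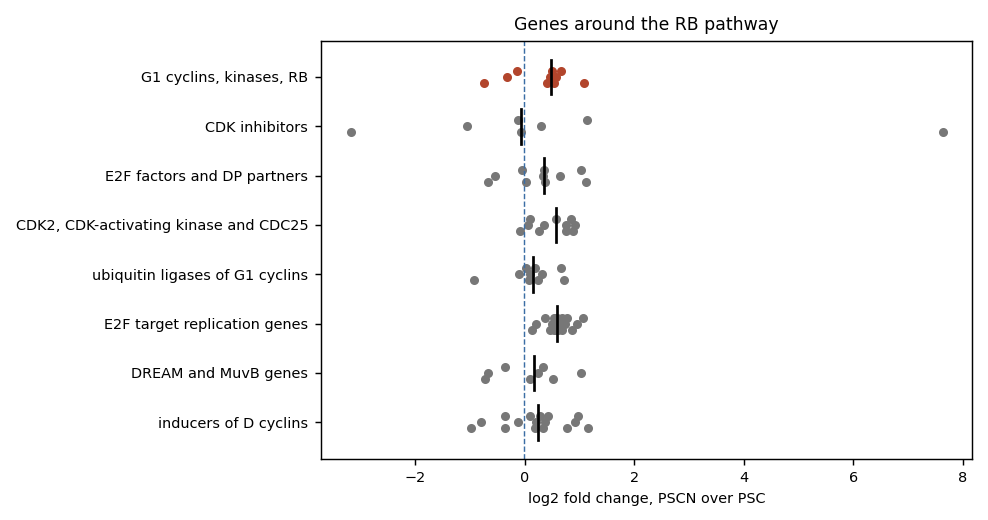
Log2 fold change of PSCN over PSC (x axis) for the 10 genes (top) and for each gene of the 7 pathway lists (y axis); black lines are medians and the dashed line is the median of all genes tested, at -0.01. All points of the E2F target replication genes lie above 0, and the point near 7.64 is CDKN2B.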

How the data were processed

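Gene-level counts of 6 total RNA libraries were analysed. The authors deposited estimated counts per gene symbol, already whole numbers, which were used as they stand. Tools in the submitters' processing notes are StringTie, HISAT2, Trimmomatic and DESeq2, with no version, and the build is GRCm38. Per the labels, libraries were stranded and paired reads were 76 nt long. The authors also deposited, per the file headers, DESeq2's mean normalized signal, log2 fold changes with standard errors, the Wald statistic as a score, and p-values with adjusted p-values; only the log2 fold changes and adjusted p-values of 2 genes are printed. The letter of a column name was read as its group (C for control, N for NSD3) and the number as its replicate; the labels do not spell this out.

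Genes passing filterByExpr (21201) were normalized with TMM, and edgeR 4.0.16 (R 4.3.3) gave quasi-likelihood F tests (Benjamini-Hochberg adjustment over all genes, threshold 0.05, 4 residual and 2.03 prior degrees of freedom). SE is the absolute log2 fold change over the square root of F, and 95% intervals use the summed degrees of freedom. RPKM divides CPM by the union of exons in GENCODE M21, which matched all 10 symbols. Correlations use log2 CPM with a prior count of 2. The edgeR, DESeq2 and quality-weighted limma-voom fits were first checked on simulated counts with 200 changed genes, whose changes were larger than those of the members. The other alternatives were not simulated. No molecular identifiers were used, so reads are not independent molecules.

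Members and lists were chosen with earlier results of these data known. Named genes were the members, up to 4 genes of smallest p per pathway list, up to 2 genes of highest mean per marker list and, for each member, the 2 pathway genes with the highest correlation; CDK2, the neighbours on the opposite strand and the genes called by other tools were named after their values were seen. TRP63 was read under its table symbol TP63. Alternatives were RLE and upper quartile normalization, DESeq2 1.42.0, limma-voom (limma 3.58.1) with and without quality weights, adjusted deviances, other filters, a replicate block, sex as a covariate, male libraries only, each library left out, and the longest transcript as length.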

Additional observations from a re-analysis of the deposited data

How the results depend on the processing

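Across 17 alternatives, the 10 log2 fold changes gave 170 values, of which 160 kept direction and side of the threshold, 9 passed it, 0 fell below it and 1 turned sign, CCND1 at 0.055 without PSC library 1 (-0.599 to 0.055 over the fits that leave out a library). All genes called higher in PSCN numbered 1 with all libraries in edgeR, 1115 with DESeq2, 1788 with limma-voom with quality weights, 3 with adjusted deviances, 3 with genes kept at 1 CPM or more in 3 libraries, and 0 with limma-voom without quality weights, with the replicate block, with sex as a covariate and with male libraries only. Leaving out each library gave 0 to 751. Genes called lower numbered 0, and 1830 with DESeq2, 1238 with limma-voom with quality weights and 0 to 1195 without each library. Members called higher numbered 1 with DESeq2, 4 with limma-voom with quality weights and 0 to 1 without each library; members called lower numbered 1, 1 and 0 to 1. The higher ends came without PSC library 3, and the cause was not tested. Same-numbered libraries did not clearly deviate together (correlations of 0.186, -0.053 and 0.016). With 3 libraries per group these values cannot exclude a pairing. The replicate block changed the call of 0 members, although the SE of CCND1 went from 0.424 to 0.249 with it. Sex as a covariate leaves PSC library 1 to carry the contrast, with CCND1 at -0.88, CCND2 at 1.10 and RBL2 at -0.85. Of the ratios, 56 of 56 alternative values moved by less than the spread between libraries, and of the pathway medians, 53 of 56. That spread is wide, and some ratio differences turned sign within it. The difference in CDK4 over CDK6 went from -0.451 to 0.507 without PSCN library 2. That in the RB1 share went from -1.6 to 0.365 without PSCN library 1 and to 0.335 without PSCN library 2. That in the CCND1 share went from -12.5 to -2.51 without PSC library 1. With at least 297 counts per member and library, the 3 libraries per group limit precision more than depth.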
